A study of Mus musculus with 12 samples.

Results

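Expression of 10 genes of the transforming growth factor beta (TGF-beta) system was examined in newborn mouse skull. They encode the 3 ligands (Tgfb1, Tgfb2, Tgfb3), 3 cell-surface receptors (Tgfbr1, Tgfbr2, Tgfbr3), 3 latent TGF-beta binding proteins (Ltbp1, Ltbp2, Ltbp3) and the matrix protein Tgfbi. They were taken by gene name, and each matched 1 row among the 23358 genes of the count table. All 10 were among the 16190 genes with enough counts to be tested.

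The tissue was frontal bone taken with the nasal bone and the adjoining coronal and frontonasal sutures at postnatal day 3, profiled by RNA sequencing of whole dissected tissue. Mice were wild type or FGFR2C342Y/+, which carry 1 mutant copy of the fibroblast growth factor receptor gene Fgfr2 and model Crouzon syndrome, a human disorder of early skull suture fusion. Each genotype was studied on the C57BL/6 and on the BALB/c background, with 3 samples in each of the 4 groups. The labels gave no other allele, no treatment and no sex, and did not say whether the 3 samples of a group were separate animals, so p-values measure only the spread between these samples. Per the labels' protocols, the tissue of every group was digested with collagenase and trypsin before RNA was extracted. Run identifiers in the sample descriptions read as flow cell names, 1 for each strain, so strain and flow cell cannot be told apart.

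TGF-beta is secreted as a latent complex in which its own propeptide stays wrapped around the dimer, and LTBPs tie that complex to fibrillin-rich matrix. Integrins and proteases release the active ligand, which is presented by Tgfbr3 and signals through Tgfbr2 and Tgfbr1 to the transcription factors SMAD2 and SMAD3. Bone matrix is a large store of latent TGF-beta, osteoclasts can free it during resorption, and TGF-beta ligands are known regulators of suture patency and fusion in the growing skull.

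The promoters of 4 members that differed between the C57BL/6 genotypes are shown for orientation: the 2 ligands, a receptor and an LTBP. RefSeq (GRCm38.p6) held promoters for 8 of the 10 members, and the 250 bases before the annotated start are printed 5′ to 3′ on the gene's own strand. Capitals mark matches on either strand to CAGAC, a motif bound by SMAD proteins, to the GC box GGGCGG, or to the TATA box TATAAA. No marked match overlaps another.
Tgfb1 (chr7:25686752-25687001, plus strand): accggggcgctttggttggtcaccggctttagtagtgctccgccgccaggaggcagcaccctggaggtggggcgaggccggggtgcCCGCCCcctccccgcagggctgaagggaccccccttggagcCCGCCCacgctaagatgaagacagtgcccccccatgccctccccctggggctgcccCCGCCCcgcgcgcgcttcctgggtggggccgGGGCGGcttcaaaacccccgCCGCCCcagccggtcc
Tgfb2 (chr1:186705990-186706239, minus strand): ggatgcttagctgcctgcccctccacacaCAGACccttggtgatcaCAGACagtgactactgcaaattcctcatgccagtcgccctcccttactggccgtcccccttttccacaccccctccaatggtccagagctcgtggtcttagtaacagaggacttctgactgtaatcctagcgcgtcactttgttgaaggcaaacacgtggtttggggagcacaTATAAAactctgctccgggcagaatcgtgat
Tgfbr2 (chr9:116175364-116175613, minus strand): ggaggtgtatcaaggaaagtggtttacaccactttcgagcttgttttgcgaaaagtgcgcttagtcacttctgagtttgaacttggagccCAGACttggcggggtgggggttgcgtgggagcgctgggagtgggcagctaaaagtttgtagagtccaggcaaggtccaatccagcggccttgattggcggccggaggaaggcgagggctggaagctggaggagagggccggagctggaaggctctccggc
Ltbp3 (chr19:5740650-5740899, plus strand): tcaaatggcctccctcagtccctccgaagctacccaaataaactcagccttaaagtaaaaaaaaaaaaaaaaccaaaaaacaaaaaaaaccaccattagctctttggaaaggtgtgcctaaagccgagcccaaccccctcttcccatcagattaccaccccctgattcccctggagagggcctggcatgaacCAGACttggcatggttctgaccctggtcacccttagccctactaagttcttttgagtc
The Tgfb1 window was 75.2% G and C and held 5 GC boxes, while the Tgfb2 window was 53.6% G and C and held no GC box, 1 TATA box 31 bases before the start and 2 CAGAC motifs. CAGAC, read on both strands, occurred in 6 of the 8 member promoters and in 42.2% of 32851 RefSeq promoters of the same length. The GC box occurred in 4 of the 8 and in 32.7% of all promoters, and the TATA box in 1 of the 8 and in 12.4%. The RUNX motif TGTGGT and the AP-1 motif TGANTCA occurred in 0 of the 8, against 14% and 6.7% of all promoters. These matches describe letters only.

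Total gene counts were 2.72e+07 to 4.65e+07 per sample, and the mean count of a member in a group ran from 943 counts for Tgfb2 in BALB/c wild type to 14887 for Ltbp3 in BALB/c mutants. Levels are given as CPM, counts scaled to a common library size with TMM factors. Fgfr2 itself was at 249 ± 35.8 CPM in C57BL/6 wild type, 361 ± 20.6 in C57BL/6 mutants, 282 ± 11.4 in BALB/c wild type and 300 ± 25.0 in BALB/c mutants (SD, n = 3 each), and gene counts do not separate the mutant from the normal allele. Osteoblast and osteoclast markers were abundant in all 12 samples. Summed nasal epithelium markers (8 of the 9 listed were found) reached 331 to 669 CPM in C57BL/6 wild type and 158 CPM in C57BL/6 mutant sample 4, against 2.20 to 3.23 CPM in the other 8 samples. Within its group, C57BL/6 mutant sample 4 stood apart, with a lowest correlation to a replicate of 0.958. Counts of Y-linked genes were high in all 3 C57BL/6 wild type samples and in 1 of 3 samples in each other group.

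Compared per kilobase of gene length, Tgfb1 and Ltbp3 were the most abundant members. Tgfb1 averaged 70.1 and Ltbp3 68.6 CPM per kilobase over the 12 samples, and Tgfb1 was the higher of the pair in 9 of 12. Tgfbr2 (42.9), Tgfbi (41.7) and Tgfb3 (34.9 CPM per kilobase) formed a middle tier, in which Tgfbr2 exceeded Tgfbi in 6 of 12 samples and Tgfbi exceeded Tgfb3 in 9 of 12. Ltbp2 (20.5) and Tgfbr1 (19.8 CPM per kilobase) exchanged places, each being higher in 6 samples. Ltbp1 (11.6), Tgfb2 (9.04) and Tgfbr3 (9.03 CPM per kilobase) were the lowest, and Tgfb2 exceeded Tgfbr3 in 3 of 12 samples, the 3 of C57BL/6 wild type. Ltbp3 exceeded Tgfbr2, and Tgfb3 exceeded Ltbp2, in 12 of 12 samples, and Tgfbr1 exceeded Ltbp1, and Ltbp1 exceeded Tgfb2, in 11 of 12. The authors' RPKM values gave the same order.

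**Figure D1:**
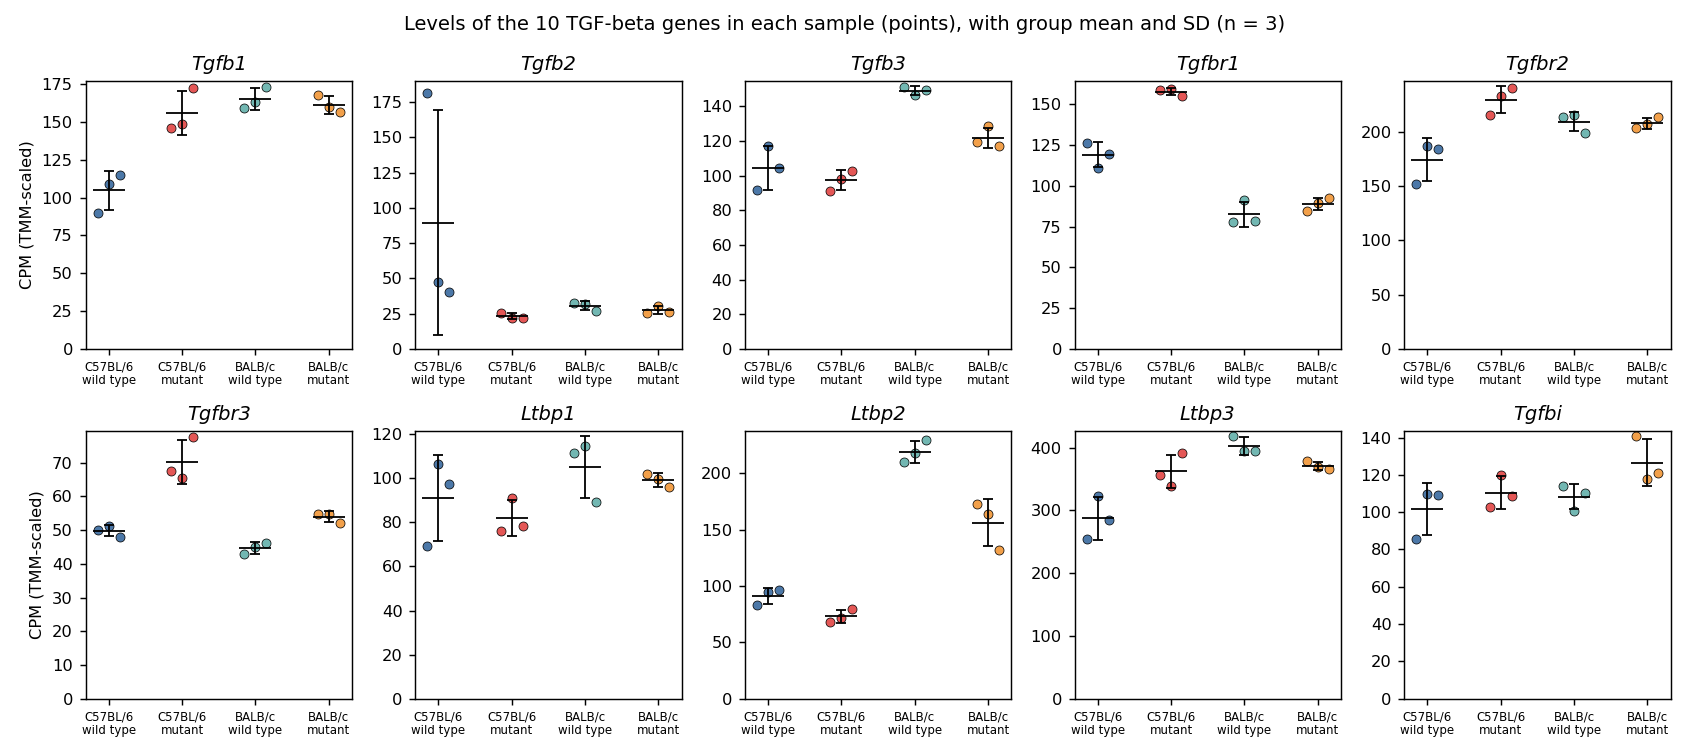
CPM (TMM-scaled, linear axes from 0) of the 10 genes in each of the 12 samples (points) by group, with the group mean (wide bar) and SD (n = 3). Tgfb2 in 1 C57BL/6 wild type sample lies at 181 CPM while its other 11 values lie between 21.7 and 47.2 CPM, and Ltbp2 separates the strains with no overlap.

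On the C57BL/6 background, the Crouzon mutants had higher levels of all 3 receptors, of the ligand Tgfb1 and of the latency protein Ltbp3, and lower levels of Tgfb2 and Ltbp2. In total 7 of 10 members were called at an adjusted p under 0.05, 5 higher and 2 lower, against 23.9% of all genes tested (11.3% higher and 12.6% lower). The same 7 members were those whose samples did not overlap between genotypes, a pattern seen in 41.6% of genes tested. The median absolute log2 fold change was 0.37 over the members and 0.21 over all genes tested. In tissue of mixed cell types, fewer cells of a type and less RNA per cell cannot be told apart. All fold changes below are from edgeR's quasi-likelihood test, with Benjamini-Hochberg adjustment over the 16190 genes.

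Tgfb1 (chr7:25687002-25704996), the ligand most abundant here, lay at 90.1, 109 and 115 CPM in C57BL/6 wild type and at 146, 149 and 173 CPM in the mutants. Every mutant sample lay above every wild type sample. Tgfb1 rose 1.49-fold (log2 0.57, SE 0.091, adjusted p = 0.0018).

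Tgfb2 (chr1:186623186-186705992), a ligand made by many epithelia and mesenchymal tissues, lay at 181, 47.2 and 40.2 CPM in C57BL/6 wild type and at 25.8, 21.7 and 22.3 CPM in the mutants. The groups did not overlap, but wild type sample 1 lay far above the other 2. Tgfb2 fell by 1.95 (log2; adjusted p = 0.010, SE 0.445). Without C57BL/6 wild type sample 1 it fell by 0.89 (SE 0.113, adjusted p = 0.0011). In a fit to the 6 C57BL/6 samples alone the call ended (adjusted p = 0.074). The same sample had the highest sum of nasal epithelium markers (669 CPM, against 435 and 331 in the other wild type samples), among them the secreted airway protein Bpifa1 at 287 CPM. In mutant samples 5 and 6 that sum was 2.62 and 3.23 CPM, and Tgfb2 was at 21.7 and 22.3 CPM. Wild type sample 1 also had the highest sum of chondrocyte markers in its group (6758 CPM, against 4602 and 4946). The same held for its neutrophil markers (276 CPM, against 146 and 190), while its osteoblast markers were the lowest (8482 CPM, against 10263 and 12216). The part of nasal lining or of these other cell types in the Tgfb2 difference was not tested.

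Tgfb3 (chr12:86056743-86079041), the ligand best known for its role in palate closure, lay at 91.7, 117 and 104 CPM in C57BL/6 wild type and at 91.3, 98.4 and 103 CPM in the mutants. These groups overlapped, and the log2 difference of -0.10 (SE 0.081, adjusted p = 0.40) did not pass the test.

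The makeup of the ligand transcripts differed. Per kilobase, Tgfb1 made up 39.7%, 53.9% and 58.3% of the 3 ligands' counts in the C57BL/6 wild type samples and 68.3%, 67.8% and 70.1% in the mutants. Tgfb2 made up 35.4%, 10.3% and 9.01% in wild type and 5.34%, 4.39% and 4.01% in the mutants. Both shares separated the C57BL/6 genotypes in every sample, also when wild type sample 1 is set aside. In BALB/c the Tgfb2 share was 5.01% ± 0.62 in wild type and 4.90% ± 0.42 in mutants (SD, n = 3), and these overlapped. The Tgfb1 share was 60.9% ± 1.39 and 64.8% ± 1.54 and separated the BALB/c genotypes too (59.5% to 62.3% and 63.2% to 66.3%). So did the Tgfb3 share (33.4% to 35.0% and 29.2% to 31.4%). The shares within a sample depend on one another, and their differences were not tested.

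**Figure D2:**
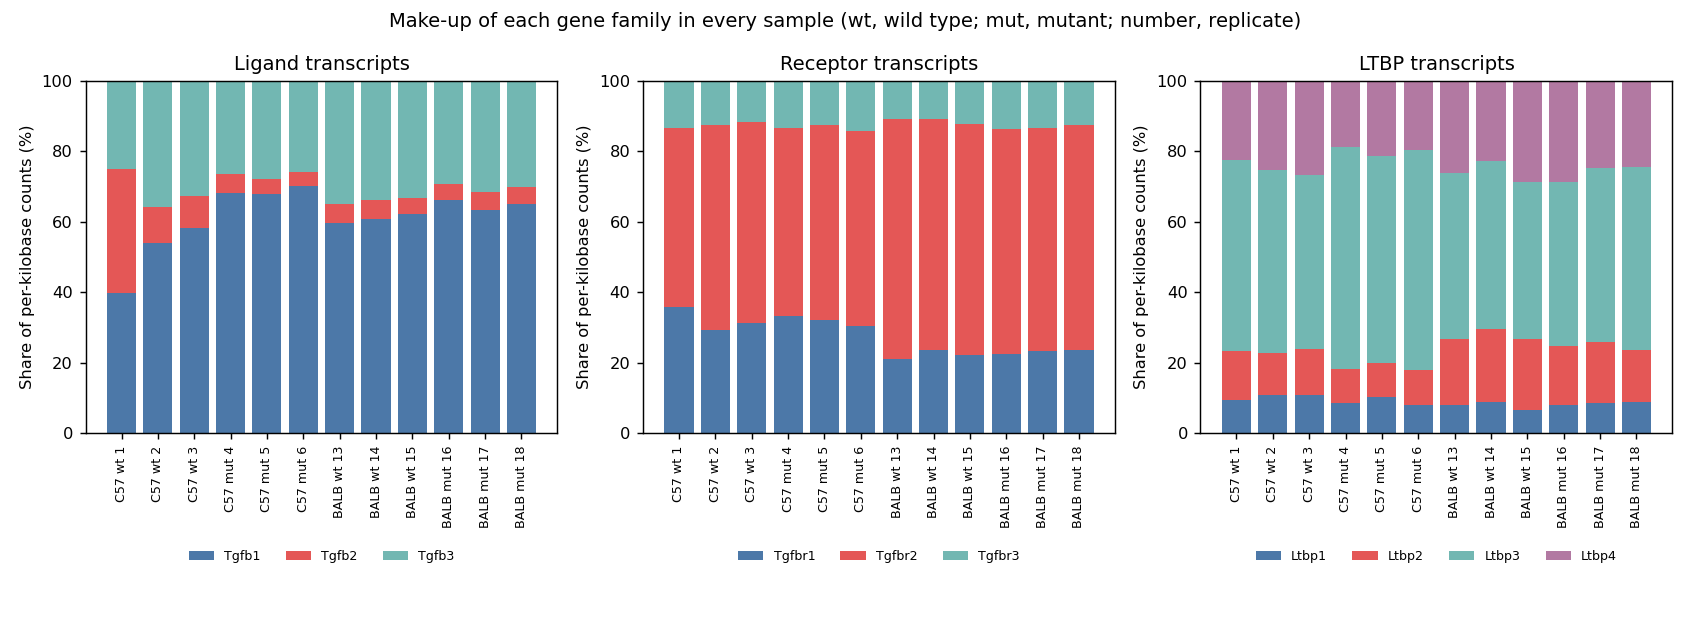
Share (%) of each gene in the per-kilobase counts of the 3 ligands, the 3 receptors and the 4 LTBPs, 1 stacked bar per sample. Tgfb2 takes 35.4% of the ligand bar in C57BL/6 wild type sample 1 and 4.01% to 10.3% in the other samples, and Tgfbr1 takes a smaller part of the receptor bar in all 6 BALB/c samples than in all 6 C57BL/6 samples.

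All 3 receptor genes were called higher in C57BL/6 mutants. Tgfbr1 (chr4:47353305-47414924), the type I receptor kinase that phosphorylates SMADs, lay at 126, 111 and 119 CPM in wild type and at 159, 159 and 155 CPM in mutants. No mutant sample reached down to the wild type range, and Tgfbr1 rose 1.33-fold (log2 0.41, SE 0.070, adjusted p = 0.0027). Total-count scaling ended that call (log2 0.21, adjusted p = 0.11). Tgfbr2 (chr9:116087695-116175363), the type II kinase that binds ligand and activates Tgfbr1, lay at 152, 187 and 184 CPM in wild type and at 216, 233 and 240 CPM in mutants. The groups were again separate, and Tgfbr2 rose 1.32-fold (log2 0.40, SE 0.080, adjusted p = 0.0058). The Tgfbr2 value was 0.21 with total-count scaling (adjusted p = 0.015), and the call ended in a fit to the C57BL/6 samples alone (adjusted p = 0.058). Tgfbr3 (chr5:107106570-107289595), the co-receptor betaglycan, lay at 50.1, 51.2 and 48.0 CPM in wild type and at 67.5, 65.6 and 77.8 CPM in mutants. The lowest mutant sample lay above the highest wild type sample, and it rose 1.41-fold (log2 0.50, SE 0.066, adjusted p = 6.8e-04), or by 0.30 with total-count scaling (adjusted p = 0.018). Because the 3 receptors rose by similar factors, their relative shares were close in both genotypes: Tgfbr1 held 32.1% ± 3.4 of receptor counts per kilobase in wild type and 31.9% ± 1.49 in mutants, and Tgfbr2 held 55.4% ± 3.94 and 54.8% ± 1.16 (SD, n = 3).

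The LTBP genes did not move as a group. Ltbp3 (chr19:5740904-5758532), which is needed for secretion and storage of latent TGF-beta in the skeleton, lay at 255, 323 and 285 CPM in C57BL/6 wild type and at 357, 340 and 391 CPM in mutants. The highest wild type sample lay below the lowest mutant sample, and Ltbp3 rose 1.26-fold (log2 0.34, SE 0.084, adjusted p = 0.016). Leaving out mutant sample 6 ended this call (log2 0.28, adjusted p = 0.072). Ltbp2 (chr12:84783212-84876495), a microfibril protein that does not bind latent TGF-beta, lay at 83.0, 94.6 and 96.4 CPM in wild type and at 68.4, 71.4 and 79.2 CPM in mutants. All mutant samples were lower, and Ltbp2 fell by 0.32 (log2, SE 0.098, adjusted p = 0.034), but the call was lost when wild type sample 2 or 3 or mutant sample 4 or 5 was left out (adjusted p = 0.086, 0.084, 0.068 and 0.090). With total-count scaling it fell by 0.52. Of the exon bases of Ltbp2, 9.34% overlap the antisense gene D030025P21Rik. For Tgfb3, 7.6% overlap Gm48008 and 4.82% overlap Gm37804, both on the other strand. Such overlaps were smaller for Tgfb2 (2.14%) and Ltbp3 (2.01%). The strand setting of the counting is not given in the sources used here, so reads from those stretches cannot be assigned. Ltbp1 (chr17:75005529-75392967), the main carrier of latent TGF-beta to the matrix, lay at 69.3, 107 and 97.4 CPM in wild type and at 76.1, 91.3 and 78.3 CPM in mutants. Its groups overlapped, and the log2 difference of -0.15 (SE 0.141, adjusted p = 0.46) did not pass.

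Among the 4 LTBPs, with Ltbp4 included, Ltbp3 held 51.8% ± 2.48 of the per-kilobase counts in C57BL/6 wild type and 61.4% ± 2.28 in mutants, and Ltbp2 held 13% ± 1.0 and 9.71% ± 0.22 (SD, n = 3). Neither share overlapped between these genotypes, nor did that of Ltbp4 (22.4% to 26.7% and 18.9% to 21.4%). In BALB/c the Ltbp2 share was separate too (18.7% to 20.7% in wild type, 14.8% to 17.25% in mutants), while the Ltbp3 share overlapped. Differences in these shares were not tested.

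Tgfbi (chr13:56609603-56639339), a matrix protein named for its induction by TGF-beta, lay at 85.4, 110 and 109 CPM in C57BL/6 wild type and at 103, 120 and 109 CPM in mutants. The samples were interleaved, and the log2 difference of 0.12 (SE 0.104, adjusted p = 0.42) did not pass the test.

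Markers of several cell types differed between the same C57BL/6 groups. The summed level of 8 osteoblast markers was 8482 to 12216 CPM in wild type and 17198 to 17809 CPM in mutants, with 7 of 8 called higher. The sum of 5 osteoclast markers, such as the bone-resorbing protease Ctsk, was 3400 to 4153 CPM in wild type and 7180 to 7990 CPM in mutants, with 5 of 5 called higher. Macrophage markers summed to 281 to 361 and 492 to 574 CPM, with 3 of 5 called higher. Erythroid markers went the other way, at 200 to 268 and 51.9 to 82.8 CPM, with 6 of 6 called lower, as did megakaryocyte markers at 26.1 to 33.8 and 13.1 to 17 CPM, with 4 of 5 called lower. Nasal epithelium markers were at 331 to 669 and 2.62 to 158 CPM, with 4 of 8 called lower, and chondrocyte markers at 4602 to 6758 and 262 to 2602 CPM, with 3 of 6 called lower. Endothelial markers were at 326 to 391 and 404 to 491 CPM, with 2 of 5 called higher. Neutrophil markers were at 146 to 276 and 74.25 to 173 CPM, with 3 of 6 called lower. The part of these shifts in the member differences was not tested. Leaving out both wild type sample 1 and mutant sample 4, an alternative chosen after seeing the data, gave 7 members called, 5 higher and 2 lower, and 25.0% of all genes. With the summed Y-linked level as a covariate 6 members and 18.1% of all genes were called, Ltbp2 being lost (adjusted p = 0.089). Scaling by total counts, which moved the median of all genes by -0.20 (log2), ended the calls for Tgfbr1 and Ltbp3 (0.15, adjusted p = 0.13) and added lower calls for Tgfb3 (-0.29) and Ltbp1 (-0.33). A fit to the 6 C57BL/6 samples alone called Tgfb1, Tgfbr1 and Tgfbr3, all higher, and 9.21% of all genes.

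**Figure D3:**
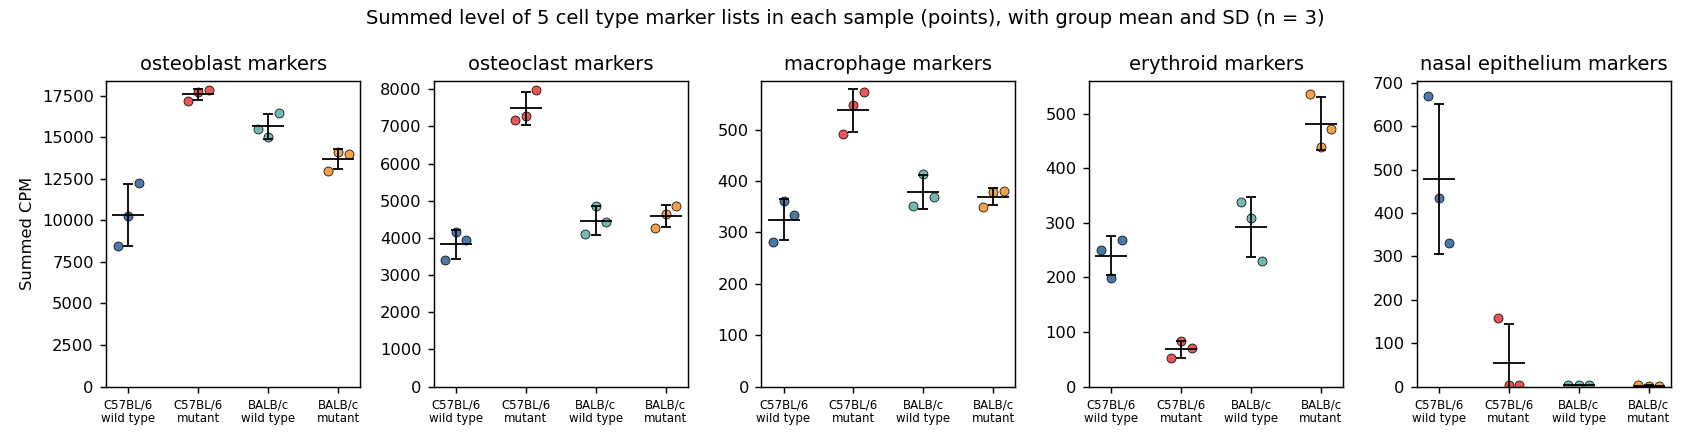
Summed CPM of the osteoblast, osteoclast, macrophage, erythroid and nasal epithelium marker lists in each sample (points), with group mean and SD (n = 3). Osteoclast markers stand at 7180 to 7990 CPM in C57BL/6 mutants and at 3400 to 4867 CPM in the other 9 samples, and nasal epithelium markers are near 0 in all BALB/c samples.

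On the BALB/c background no member was called between mutant and wild type by edgeR, in a comparison where 0.136% of all genes tested (22 genes) were called. Of the members, 3 had an unadjusted p under 0.05, namely Tgfb3, Tgfbr3 and Ltbp2, against 11.7% of all genes tested. The groups did not overlap for 5 members, against 20.0% of genes tested. DESeq2 called 3 members, with 2.00% of all genes (323 genes), and limma-voom 0, with 0.272%. The authors' deposited table listed 2 of the 10 genes (Tgfb3 and Ltbp2, both lower) at a q-value under 0.05 in this comparison.

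Ltbp2 had the largest BALB/c difference of the 10, at 210, 218 and 230 CPM in wild type and 173, 164 and 132 CPM in mutants. All mutant samples lay below all wild type samples, and the log2 difference was -0.49 (SE 0.098, adjusted p = 0.085, unadjusted p = 3.2e-04). DESeq2 gave an adjusted p of 3.7e-04, and over the 8 other settings tried with all samples the adjusted p ranged from that value to 0.090. Tgfb3 lay at 151, 146 and 150 CPM in wild type and at 120, 128 and 117 CPM in mutants. Here too the genotypes were separate, with a log2 difference of -0.29 (SE 0.081, adjusted p = 0.19), which DESeq2 placed at an adjusted p of 0.038. Tgfbr3 lay at 42.9, 45.0 and 46.3 CPM in wild type and at 54.9, 54.9 and 52.1 CPM in mutants, a log2 difference of 0.27 with SE 0.066 (adjusted p = 0.14 by edgeR and 0.022 by DESeq2). C57BL/6 wild type sample 1 and mutant sample 4 are in neither group of this contrast but share its filter, scaling and estimate of spread. Leaving them out gave calls for Tgfb3 (adjusted p = 0.040) and Ltbp2 (adjusted p = 0.029). Between the same BALB/c groups, summed osteoblast markers were at 14993 to 16464 CPM in wild type and 12967 to 14083 CPM in mutants, erythroid markers at 231 to 338 and 439 to 535 CPM, and neutrophil markers at 368 to 433 and 526 to 575 CPM. None of these 3 lists overlapped. Neither did suture mesenchyme markers (524 to 568 and 478 to 522 CPM) or megakaryocyte markers (33.4 to 39.8 and 40.9 to 59.2 CPM). Gene by gene, 1 of 6 erythroid markers was called (higher). Calls numbered 0 of 8 for osteoblast, 0 of 6 for neutrophil, 0 of 5 for suture mesenchyme and 0 of 5 for megakaryocyte markers. Mutant sample 16 had 412 CPM of skeletal muscle markers and mutant sample 17 had 4817 CPM of chondrocyte markers, each above the other 5 BALB/c samples. The part of these shifts in the member differences was not tested.

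The other members had small differences on BALB/c. Tgfb1 lay at 159, 163 and 173 CPM in wild type and at 168, 160 and 157 CPM in mutants, a log2 difference of -0.03 (SE 0.091, adjusted p = 0.94). Tgfbr2 lay at 213, 216 and 199 CPM in wild type and at 203, 207 and 213 CPM in mutants (log2 -0.01, SE 0.080, adjusted p = 0.99). In both genes the genotypes were interleaved. Ltbp3 lay at 419, 395 and 395 CPM in wild type and at 378, 370 and 366 CPM in mutants. Its samples were separate, but the log2 difference of -0.12 (SE 0.084, adjusted p = 0.65) did not pass. The log2 differences of the rest were -0.15 for Tgfb2 (SE 0.439), 0.11 for Tgfbr1 (SE 0.071), -0.08 for Ltbp1 (SE 0.141) and 0.22 for Tgfbi (SE 0.104), and the lowest adjusted p among them was 0.44, for Tgfbi. For Tgfb2 the standard error is set by the wide spread in C57BL/6 wild type, since the 4 groups share 1 estimate of spread, and it is 0.103 without wild type sample 1.

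**Figure D4:**
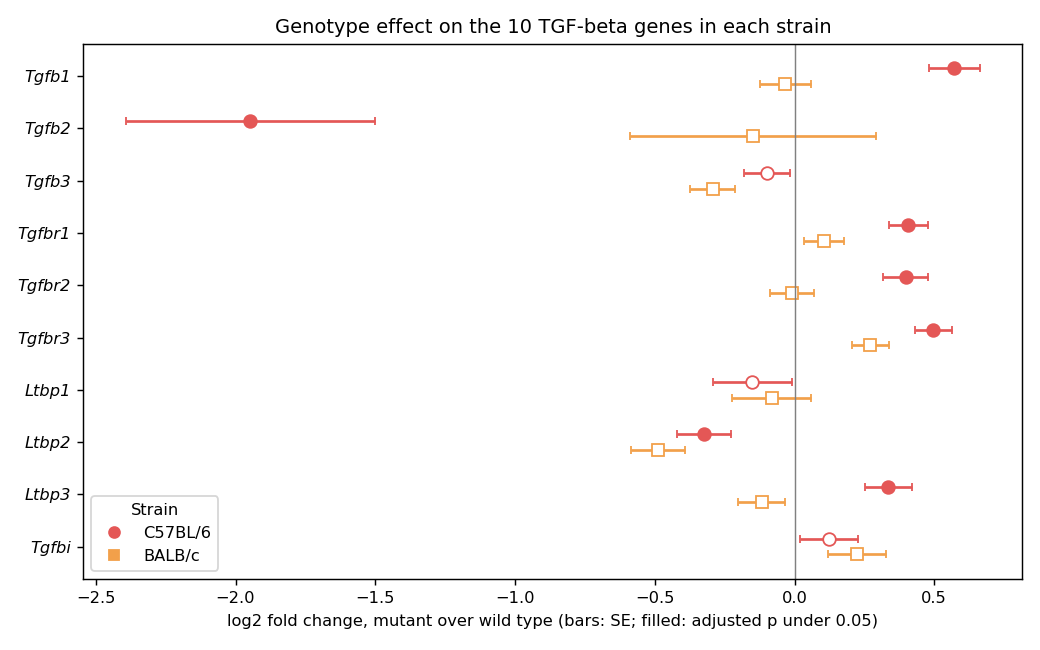
Log2 fold change of mutant over wild type (x axis; bars are SE) for the 10 genes on C57BL/6 (circles) and BALB/c (squares); filled symbols passed an adjusted p of 0.05. The C57BL/6 values run from -1.95 for Tgfb2 to 0.57 for Tgfb1, with 7 filled, and the BALB/c values from -0.49 for Ltbp2 to 0.27 for Tgfbr3, with none filled.

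The genotype effect itself was compared between the strains with an interaction term, the effect in BALB/c minus the effect in C57BL/6. It was called for 3 of 10 members, all negative, against 10% of genes tested (5.46% positive and 4.58% negative). For Tgfb1 it was -0.60 (SE 0.128, adjusted p = 0.017). This call held with each of the 12 samples left out in turn and under all 7 other settings of tool, scaling, filter and covariate, with a value of -0.38 under total-count scaling. For Ltbp3 it was -0.45 (SE 0.119, adjusted p = 0.036) and for Tgfbr2 -0.41 (SE 0.113, adjusted p = 0.043). Both were close to the threshold. With total-count scaling they were -0.23 and -0.18 (adjusted p = 0.13 and 0.12), with no filter their adjusted p was 0.051 and 0.058, and with the Y-linked covariate that of Tgfbr2 was 0.071. The Ltbp3 call held in 4 of the 12 fits that leave out a sample, being lost without C57BL/6 wild type sample 3, without mutant sample 6 and without any 1 of the 6 BALB/c samples (adjusted p = 0.053 to 0.096). The Tgfbr2 call also held in 4 of the 12, being lost without C57BL/6 mutant sample 5 or 6 or any BALB/c sample (adjusted p = 0.060 to 0.11). A further receptor and a further ligand lay nearby without a call, Tgfbr1 at -0.30 (SE 0.0998, adjusted p = 0.072) and Tgfb2 at 1.80 (SE 0.620, adjusted p = 0.082). Tgfbr1 was called by DESeq2 (adjusted p = 0.033) and without C57BL/6 samples 1 and 4 (adjusted p = 0.035), and was at -0.068 with total-count scaling. Without C57BL/6 wild type sample 1 the Tgfb2 interaction was 0.74 (SE 0.153) and was called (adjusted p = 0.020), and it was also called without wild type sample 2 or 3 (2.10 and 2.16, adjusted p = 0.047 and 0.029). For Tgfbr3 (-0.23), Tgfb3 (-0.19), Ltbp2 (-0.16), Tgfbi (0.10) and Ltbp1 (0.07) the interaction did not pass, which does not show that the strains responded alike. Osteoclast markers had 5 of 5 negative interaction calls and osteoblast markers 5 of 8, and erythroid markers 6 of 6 positive ones. Positive ones also numbered 4 of 7 for skeletal muscle, 4 of 5 for megakaryocyte and 3 of 6 for neutrophil markers, and macrophage markers had 2 of 5 negative. Their part in the member interactions was not tested.

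Between the strains, wild type BALB/c samples had more Tgfb1, Tgfb3, Tgfbr2, Ltbp2 and Ltbp3 and less Tgfb2 and Tgfbr1 than wild type C57BL/6. These 7 of 10 calls (5 higher, 2 lower) stand against 48.5% of genes called in the same contrast (22.8% higher, 25.6% lower), and 8 members did not overlap against 57.5% of genes. Among the higher calls Ltbp2 had the largest difference, 219 ± 9.80 CPM in BALB/c against 91.4 ± 7.27 CPM in C57BL/6 (SD, n = 3). It was 2.40-fold higher (log2 1.26, SE 0.099, adjusted p = 4.3e-06). Tgfb1 was 1.58-fold higher (log2 0.66, SE 0.091, adjusted p = 1.8e-04), which put wild type BALB/c (165 ± 7.14 CPM) near the level of C57BL/6 mutants (156 ± 14.6 CPM). Tgfb3 was 1.43-fold higher, at 149 ± 2.53 against 104 ± 12.8 CPM (log2 0.51, SE 0.081, adjusted p = 4.2e-04). Ltbp3 was 1.40-fold higher (log2 0.49, adjusted p = 7.5e-04) and Tgfbr2 1.20-fold higher (log2 0.26, adjusted p = 0.017). The Tgfbr2 call was lost without BALB/c wild type sample 13 or 14 (adjusted p = 0.054 and 0.056) and with the Y-linked covariate (0.068), and its value was 0.16 with total-count scaling. Tgfbr1 went the other way, at 77.6, 91.4 and 78.7 CPM in BALB/c wild type (log2 -0.53, SE 0.071, adjusted p = 1.5e-04). With all samples Tgfb2 was lower in BALB/c (log2 -1.55, SE 0.441, adjusted p = 0.012), at 32.8, 32.1 and 26.9 CPM in BALB/c. Without C57BL/6 wild type sample 1 the difference was -0.51 (SE 0.113, adjusted p = 0.0048). Nasal epithelium markers stood at 331 to 669 CPM in wild type C57BL/6 and 2.55 to 2.99 CPM in BALB/c, where Bpifa1, Cyp2g1, Krt14 and Sec14l3 had 0 counts in all 3 samples, and their part in this strain difference was not tested. Chondrocyte markers stood at 4602 to 6758 CPM in wild type C57BL/6 and 577 to 1688 CPM in BALB/c (3 of 6 called lower), and osteoblast markers at 8482 to 12216 and 14993 to 16464 CPM (3 of 8 higher, 1 lower). Neutrophil and erythroid markers each had 3 of 6 called higher. Suture mesenchyme markers (399 to 487 CPM in C57BL/6, 524 to 568 in BALB/c) had 3 of 5 called higher, and smooth muscle and pericyte markers (317 to 368 and 223 to 239 CPM) had 2 of 5 called lower and 1 higher. The part of these shifts in the member differences between the strains was not tested.

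Between mutants of the 2 strains 4 members were called, 2 higher and 2 lower in BALB/c, against 36.9% of genes (18% higher, 18.9% lower), and 6 did not overlap, against 50.2%. Ltbp2 had the largest value here, at 173, 164 and 132 CPM in BALB/c mutants and 68.4 to 79.2 CPM in C57BL/6 mutants (log2 1.10, SE 0.099, adjusted p = 9.7e-06). Tgfb3 was also higher in BALB/c (log2 0.32, SE 0.081, adjusted p = 0.0091). Tgfbr1 was lower, at 84.7, 89.3 and 92.5 CPM against 155 to 159 CPM (log2 -0.83, SE 0.071, adjusted p = 6.8e-06), and so was Tgfbr3 (log2 -0.38, SE 0.065, adjusted p = 8.5e-04). Ltbp2, Tgfb3 and Tgfbr1 were called in the same direction in both genotypes. Tgfbr3 was also lower in every BALB/c wild type sample, at 42.9 to 46.3 CPM against 48.0 to 51.2 CPM (log2 -0.15, SE 0.066, adjusted p = 0.072), and was called there with total-count scaling (0.018) and without C57BL/6 mutant sample 6 (0.025). Tgfb1 (log2 0.05, SE 0.091, adjusted p = 0.70) and Ltbp3 (log2 0.03, SE 0.084, adjusted p = 0.78) did not pass in mutants. In the receptor pool, Tgfbr1 held 22.2% ± 1.28 of per-kilobase counts in BALB/c wild type and 23.0% ± 0.52 in BALB/c mutants (SD, n = 3), below every C57BL/6 sample, the lowest of which held 29.2%. Between the same mutants, osteoclast markers (5 of 5), osteoblast markers (6 of 8, with 1 higher) and macrophage markers (4 of 5) were called lower in BALB/c. Erythroid (6 of 6), neutrophil (6 of 6), megakaryocyte (5 of 5) and skeletal muscle markers (7 of 7) were called higher. Their part in the member differences was not tested. Each comparison here shares its groups with others, so the values are given side by side and were not correlated.

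Other genes of the pathway were read from lists by role, 49 genes in all, of which all 49 were tested. In C57BL/6 mutants 20 of 49 (40.8%) were called, 16 higher and 4 lower, against 23.9% of all genes. Among 17 genes of latency and activation, 5 were called. Itgav and Itgb3, which encode the 2 chains of an integrin, were both higher. Itgb3 lay at 151, 181 and 169 CPM in wild type and at 288, 301 and 330 CPM in mutants (log2 0.87, SE 0.118, adjusted p = 7.9e-04). Itgav rose by 0.62 (SE 0.104, adjusted p = 0.0023). The other listed beta chains, Itgb1, Itgb5, Itgb6 and Itgb8, named after their values were seen, were not called. Itgb6 (mean 1.63 CPM in wild type, 0.39 in mutants) and Itgb8 (0.79 and 0.58 CPM) were barely counted. Itgb3 is also a gene of osteoclasts and megakaryocytes, whose markers moved as given above. Fbn1, the microfibril protein to which LTBPs attach, lay at 200, 243 and 196 CPM in wild type and at 129, 148 and 149 CPM in mutants, a fall of 0.58 (SE 0.137, adjusted p = 0.012). Furin, the propeptide protease (log2 0.27), and Fbn2 (log2 -0.44) made up the 5 and are named after their values were seen. Both calls ended without mutant sample 6 (adjusted p = 0.054 and 0.050), and Furin was at 0.076 with total-count scaling (adjusted p = 0.26) and lost in the fit to the C57BL/6 samples alone (0.085).

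Of 5 accessory receptor genes 2 were called, both higher: the co-receptor Cd109 (log2 0.57, SE 0.134, adjusted p = 0.012) and the decoy receptor Bambi (log2 0.42, SE 0.140, adjusted p = 0.049). The Cd109 call ended in the fit to the C57BL/6 samples alone (adjusted p = 0.078). The Bambi call ended in 5 of the 8 other settings and in 9 of the 12 fits that left out a sample (adjusted p = 0.050 to 0.18). Of 4 SMAD genes the transducer Smad3 (log2 0.41, SE 0.075, adjusted p = 0.0037) and the inhibitor Smad7 (log2 0.46, SE 0.093, adjusted p = 0.0060) rose, and Smad2 and Smad4 were not called. Of 7 inhibitors and corepressors 3 rose, the SMAD corepressor Skil (log2 0.46), Pmepa1 (log2 0.35) and the ubiquitin ligase Smurf1 (log2 0.23). With total-count scaling Pmepa1 was at 0.16 (adjusted p = 0.051) and Smurf1 at 0.039 (adjusted p = 0.52), and both calls also ended in the fit to the C57BL/6 samples alone and without mutant sample 6. Several of these, Smad7, Skil and Pmepa1 among them, are known both as TGF-beta targets and as brakes on the pathway.

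Among 16 listed target genes 8 were called in C57BL/6, 6 higher and 2 lower. Cdkn2b, a cell cycle inhibitor, was low in all samples, at 3.22, 3.55 and 3.59 CPM in wild type and 6.15, 6.11 and 7.60 CPM in mutants, with no overlap (log2 0.94, SE 0.204, adjusted p = 0.0084). Tagln, a contractile protein of smooth muscle and myofibroblasts, went the other way, at 70.6, 75.1 and 65.5 CPM in wild type and 51.1, 38.5 and 40.5 CPM in mutants (log2 -0.70, SE 0.169, adjusted p = 0.014). The Tagln call ended without mutant sample 5 or 6 (adjusted p = 0.052 and 0.056). Without mutant sample 6 the calls for Ctgf, Postn, Cdkn1a and Timp1 ended as well (adjusted p = 0.053 to 0.10). With total-count scaling those for Ctgf, Cdkn1a, Timp1 and Snai1 ended (adjusted p = 0.070 to 0.28). These genes are named after their values were seen. The target list's median log2 fold change was 0.19, and that of all genes tested was -0.0040.

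Between BALB/c genotypes 0 of the 49 pathway genes were called, against 0.136% of all genes. The interaction was called for 12 of 49, 1 positive and 11 negative, against 10% of all genes. The positive one was Fbn1 (0.92, SE 0.193, adjusted p = 0.016). Negative ones were Itgb3 (-0.63), Itgav (-0.58), Cd109 (-0.69), Smad7 (-0.50), Skil (-0.52), Pmepa1 (-0.44), Smurf1 (-0.29), Cdkn2b (-1.20) and the cell cycle inhibitor Cdkn1a (-0.52), and Snai1 (-0.48), named after its value was seen, was another. Leaving out any 1 of 8 samples, namely C57BL/6 mutant 5 or 6 or a BALB/c sample, left 2 to 5 pathway genes called, while the share of all genes called fell to between 3.78% and 5.47%. In the C57BL/6 comparison the pathway count was 10 without mutant sample 6 and 13 without mutant sample 5, where 10.5% and 13.8% of all genes were called, and 17 to 22 without any other single sample. With total-count scaling the C57BL/6 calls were 8 higher and 8 lower, and the interaction calls 5 positive and 1 negative.

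**Figure D5:**
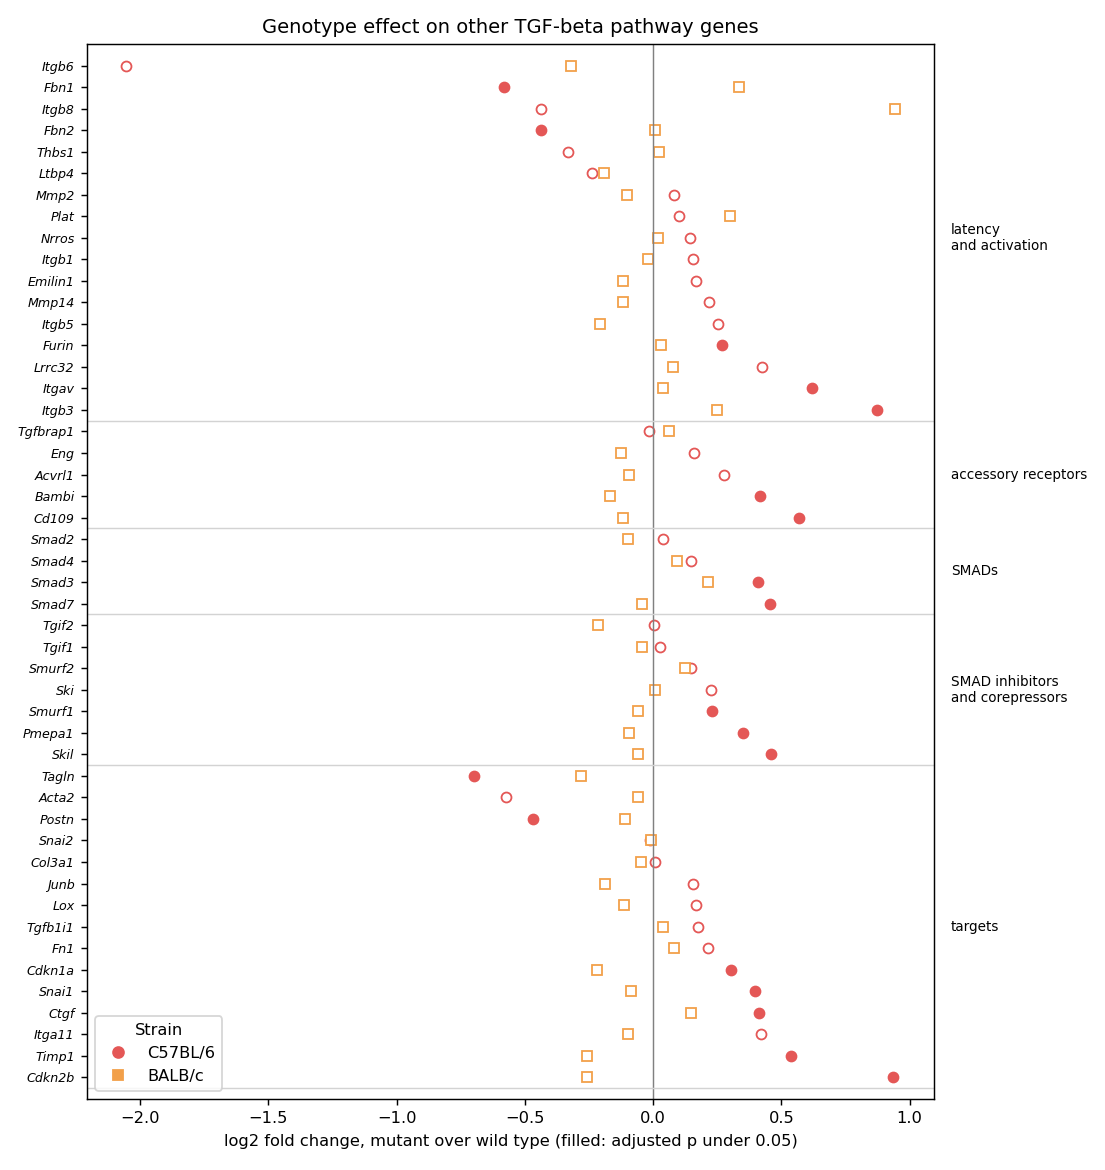
Log2 fold change of mutant over wild type for other pathway genes, grouped by role, on C57BL/6 (circles) and BALB/c (squares); filled symbols passed an adjusted p of 0.05. Itgb3 and Cdkn2b lie furthest right among the filled C57BL/6 symbols at 0.87 and 0.94, Fbn1 and Tagln furthest left at -0.58 and -0.70, and no BALB/c symbol is filled.

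The genes whose levels followed each member most closely over the 12 samples were sought among 9012 genes with a mean of at least 10 CPM, by Pearson's r of log2 CPM, as a description. The samples share 4 groups, 2 flow cells and their library depths. Tgfb1 was followed most closely by Atp6v0e, a subunit of the proton pump that acidifies lysosomes and the resorption space (r = 0.98), and by the Fc receptor Fcgrt (r = 0.98). Tgfb2, with its single high sample, was followed by Mex3a (r = 0.97). Tgfb3 was followed by Ogn, a small proteoglycan of bone and tendon (r = 0.98), and Leprel2, a collagen prolyl hydroxylase (r = 0.97). For the receptors the closest genes were Plekhb2 and Ptpn3 for Tgfbr1 (both r = 0.98), Coro1c for Tgfbr2 (r = 0.98) and Selplg and Mterfd2 for Tgfbr3 (both r = 0.96). For the LTBPs they were Klhl21 and Eno2 for Ltbp2 (both r = 0.98), Pyroxd2 and Man2b2 for Ltbp3 (both r = 0.98) and Prss35 and the basement membrane protein Nid1 for Ltbp1 (r = 0.93 and 0.92). Tgfbi had the loosest matches, Cdr2 and Mark3 (both r = 0.86). Between members, the strongest positive relations were Tgfb3 with Ltbp2 (r = 0.95) and Tgfb1 with Ltbp3 (r = 0.93), and the strongest negative ones Tgfbr1 with Ltbp2 (r = -0.95) and Tgfb2 with Tgfbr2 (r = -0.91).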

How the data were processed

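The authors deposited a table of raw counts per gene with a gene length and an RPKM value (per the file headers), and a table that gives, for 4 group comparisons, a log2 ratio with its p-value and q-value. Per the submitters' processing notes, bcl2fastq, TopHat2 2.0.6, HTSeq and DESeq2 were used with build mm10; versions of the others and the strand setting are not given in the sources used here. Every deposited count was even (0 odd values), and halving the counts was one alternative.

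Counts were fitted with edgeR 4.0.16 (R 4.3.3): filterByExpr (minimum count 10, minimum total 15), TMM, 1 mean per group over all 12 samples, glmQLFTest, Benjamini-Hochberg over 16190 genes, with 0.05 as the threshold for a call. The common biological coefficient of variation was 0.176. SE is the log2 fold change divided by the square root of F. The log2 CPM used for correlations had a prior count of 2. On simulated data for the C57BL/6 contrast (15981 genes), 73.1%, 95.5% and 98.5% of genes changed 1.5-, 2- and 4-fold were recovered. Only 66 or 67 genes were changed per fold, and all other genes had the same mean in the 4 groups. Changes under 1.5-fold were not simulated, and of the called members only Tgfb2 exceeded that size. The members and lists were chosen with earlier results of these data known. Named: all members; per pathway list the 3 largest C57BL/6 changes called and up to 3 interaction calls; and the 2 genes most correlated with each member, leaving out predicted and unnamed genes. Alternatives were DESeq2 1.42.0, limma-voom (limma 3.58.1), RLE or total-count scaling, no filter, 2-group fits, a Y-linked covariate, halved counts and leaving out each sample. Coordinates are the table's, and overlaps come from the GENCODE annotation of GRCm38. Of the value columns, 0 belonged to no sample of the series. Some genes that these rules name are not reported here.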

Additional observations from a re-analysis of the deposited data

Results flagged for a closer look

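The genotype effect differed between the strains, by the interaction test, for 3 members. For Tgfb1 the effect was 0.57 (log2) on C57BL/6 and -0.03 on BALB/c, a difference of -0.60 (adjusted p = 0.017). For Ltbp3 it was 0.34 and -0.12, a difference of -0.45 (adjusted p = 0.036), and for Tgfbr2 0.40 and -0.01, a difference of -0.41 (adjusted p = 0.043). Among these, the calls for Ltbp3 and Tgfbr2 each held in 4 of 12 fits that left out 1 sample, and the call for Tgfb1 held in 12 of 12.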

How the results depend on the processing

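No paired analysis was possible because the replicate numbers (1 to 3, 4 to 6, 13 to 15 and 16 to 18) were not shared between groups. The number of members called, with 1 sample left out at a time, ranged from 6 to 7 for the C57BL/6 genotype comparison, 0 to 0 for BALB/c, 6 to 8 for the strains in wild type, 4 to 4 in mutants and 1 to 4 for the interaction. In that order, the share of all genes called ranged from 10.5% to 29.3%, 0% to 0.574%, 39.7% to 49.0%, 27.3% to 38.7% and 3.78% to 19.0%. Fitting only the 2 groups compared gave 3 members in the C57BL/6 comparison, with Tgfb2, Tgfbr2, Ltbp2 and Ltbp3 lost; the share of all genes called fell from 23.9% to 9.21%. The BALB/c count of 0 (0.136% of all genes called) was 3 by DESeq2 (2.00%). It was 2 (0.768%) without both C57BL/6 wild type sample 1 and mutant sample 4 (added after seeing the data). The interaction count of 3 (10% of all genes called) was 1 with total-count scaling (11.4%), 1 with no filter (6.59%), 4 by DESeq2 (16.7%) and 5 with those 2 samples left out (18%). The mutant strain count of 4 (36.9% of all genes called) was 6 with total counts (36.8%), which added Ltbp1 and Tgfbi. It was 5 in the 2-group fit (38.7%), adding Ltbp1, and 6 without those 2 samples (37.9%), adding Tgfb2 and Tgfbr2. Over all genes the BALB/c comparison gave 323 calls by DESeq2 and 22 by edgeR.

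Total-count scaling moved the median of all genes by -0.20 (log2) in the C57BL/6 comparison, where 13.2% of the genes called were then higher, against 47.5% with TMM. Under it 7 members were called, 3 higher and 4 lower, against 28.9% of all genes. Tgfbr1 (0.21) and Ltbp3 (0.15) were lost, Tgfb3 (-0.29) and Ltbp1 (-0.33) were gained, and Tgfbi became -0.065. The median moved by -0.11 between wild type strains (31.2% higher against 47.1%), by 0.12 between mutant strains (67.8% against 48.8%) and by 0.23 for the interaction (90.5% against 54.4%). Of the pathway genes it left 16 called on C57BL/6 (8 higher, 8 lower) and 6 for the interaction (5 positive, 1 negative); 12 of the 20 and 2 of the 12 original calls remained.

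The other sign changes were all of values not called in either setting. With total counts these were, for BALB/c genotype, Tgfb1 (0.0022) and Tgfbr2 (0.026); for wild type strains, Tgfbi (-0.0095); and for the interaction, Tgfb3 (0.031, from -0.19), Tgfbr3 (0.0071, from -0.23) and Ltbp2 (0.063, from -0.16). Leaving out 1 sample at a time, the BALB/c genotype difference of Tgfb1 ranged from -0.056 to 0.0021 (positive without BALB/c sample 15) and that of Tgfbr2 from -0.044 to 0.020 (positive without BALB/c samples 13, 14 and 16, at 0.011, 0.020 and 0.013). Tgfbi between wild type strains ranged from -0.012 (without C57BL/6 samples 1 and 4; -0.011 without sample 1 alone) to 0.16, Tgfb1 between mutants from -0.012 (without samples 1 and 4) to 0.14 and Ltbp3 between mutants from -0.0069 (without C57BL/6 sample 5) to 0.098, and the Ltbp1 interaction was -0.060 without C57BL/6 sample 2 and -0.036 without BALB/c sample 15. The cause of these changes was not tested.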
